A study of Mus musculus with 8 samples.

Results

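The nuclear-encoded subunits of the mitochondrial respiratory chain were followed in the mouse medial prefrontal cortex shortly after a single session of contextual fear conditioning. Members were the rows whose gene symbol begins with Nduf and a subunit letter and digit, is Sdha, Sdhb, Sdhc, Sdhd or Cyc1, or begins with Uqcr, Cox4 to Cox8 or Atp5. This gave 86 of the 22609 genes in the table. By the complex they belong to, 35 were placed in complex I, 4 in complex II, 9 in complex III, 19 in complex IV and 15 in complex V. The other 4 share a symbol prefix with the subunits but are not structural subunits. Of the 86, 84 had a mean of at least 1 scaled read and were tested, among 14704 tested genes. The remaining pair, Cox8b and Cox8c, was listed at 0 in all 8 samples.

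The fear conditioning group held 4 samples from B6.SJL mice aged 3 months that spent 3 min in a conditioning chamber and then received 2 foot shocks of 0.8 mA. Each shock lasted 2 s, 30 s separated them, and the mice stayed in the chamber for another 15 s. The context control group held 4 samples from mice of the same strain and age that were placed in the chamber in the same way without a shock. All mice were killed 1 h after training, and total RNA came from the anterior cingulate part of the medial prefrontal cortex of both hemispheres. The study's design text calls the 4 samples of a group biological replicates.

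The respiratory chain passes electrons from NADH and succinate to oxygen through complexes I to IV in the inner mitochondrial membrane. The proton gradient this builds is used by complex V, the ATP synthase, to make most of a neuron's ATP. The great majority of subunits are encoded in the nucleus and imported, while a small core is encoded by mitochondrial DNA and has to be matched to them. No gene encoded by mitochondrial DNA was found in the table, so that side of the chain was not analysed here.

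A value in the table is the number of reads assigned to a gene divided by one factor per sample, with no correction for gene length, and is called scaled reads below. Between 1992452 and 3565356 reads per sample were recovered from these values, and 14276 to 15161 genes lay above 0. Neuronal markers summed to 11017 to 14566 scaled reads in fear conditioning and 11140 to 13958 in context control, and no marker found in the table was at 0. Libraries differed along GC content, the share of G and C bases in a transcript, in both groups. Replicates 1 and 2 held more of GC-rich transcripts and replicates 3 and 4 less, and fear conditioning replicate 4 stood farthest out. Context control replicate 3 held 10798 scaled reads of 10 oligodendrocyte markers, against 2701 to 5052 in the other 3 controls. The p-values below measure the spread between these 8 samples.

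No subunit differed between the groups beyond the spread of the replicates. Of the 84 tested members, 0 passed an adjusted p of 0.05 as higher in fear conditioning and 0 as lower, and the share of all tested genes that passed was 0.0% in each direction (limma, Benjamini-Hochberg adjustment over 14704 genes, adjusted p = 0.9998 for each of the 84 members). At an unadjusted p under 0.05 the count was again 0 of 84 members, against 397 (2.7%) of all tested genes. The 4 fear conditioning values and the 4 context control values overlapped for all 84 members, whereas 282 (1.92%) of all tested genes had groups that did not overlap, 0.979% with fear conditioning higher and 0.939% with it lower. The edgeR and DESeq2 fits to recovered reads also called 0 of 84, and at an unadjusted p under 0.05 each had 0 members.

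The log2 change is the mean of log2(scaled reads + 1) in fear conditioning minus that in context control. It lay above 0 for 36 members and below 0 for 48, with a median of -0.03, against 51.8% above 0 and a median of 0.009 over all tested genes. This split moved with the scaling, and that of all tested genes moved too. After all columns were scaled to the same total, 15 members lay above 0 and 69 below. Of the 14704 tested genes, 6186 then lay above 0, with a median of -0.041. After a correction for transcript length, 51 members lay above 0 and 33 below, against 7137 tested genes above 0 (median -0.007). Without these changes of scale, the median was -0.029 in complex I, 0.003 in complex II and 0.019 in complex III. It was -0.033 in complex IV and 0.014 in complex V. The 95% interval of the log2 change reached 0.44 to either side for the median member, against 0.62 for the median gene. That interval lay within a 1.5-fold difference in both directions for 50 of the 84 members and within a 2-fold difference for 68. In bulk tissue, fewer cells of a type and less RNA per cell cannot be told apart.

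**Figure D1:**
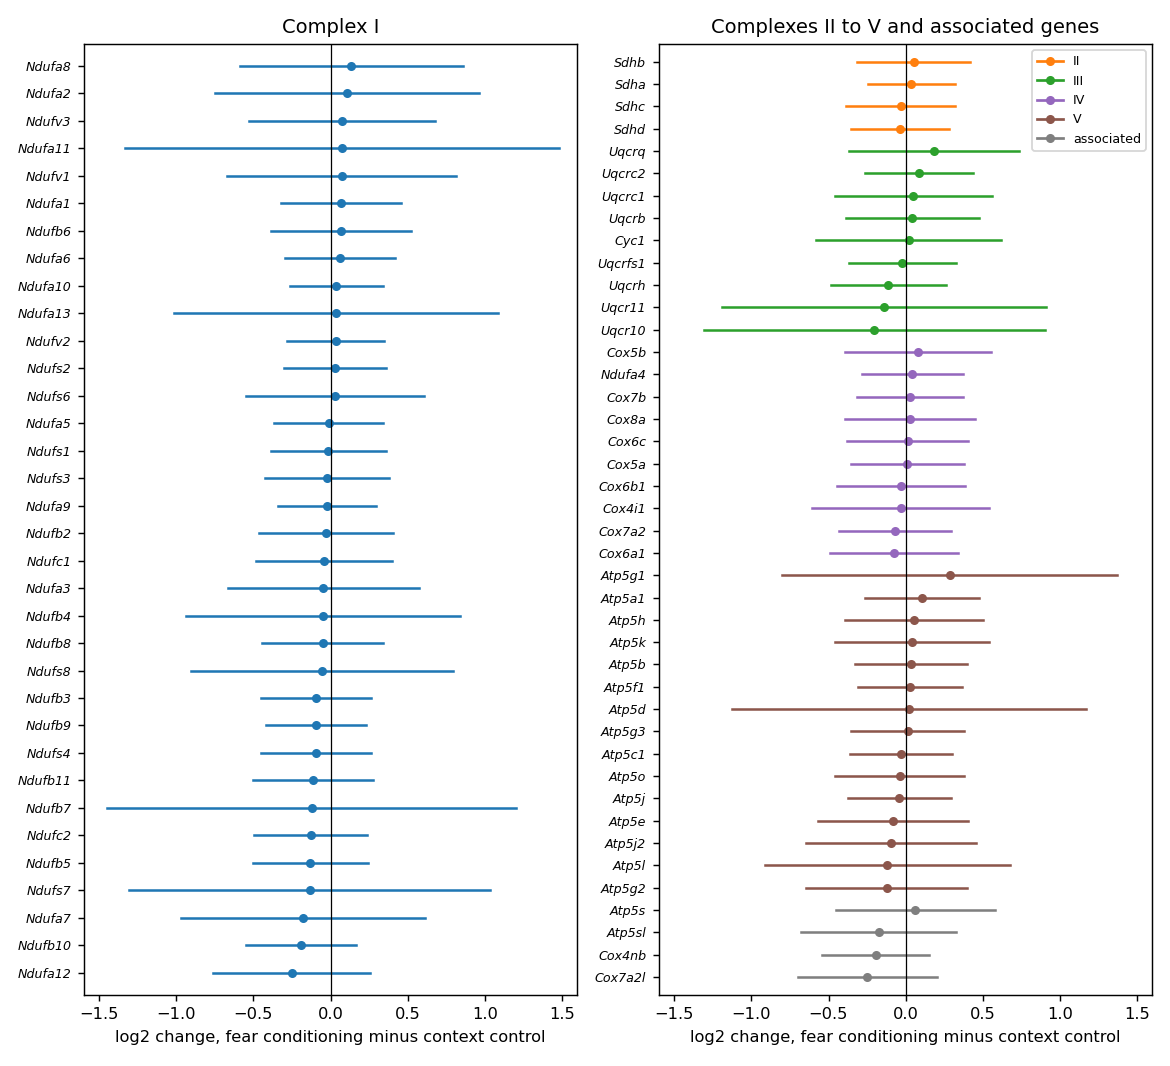
Log2 change of each member with a mean of at least 20 scaled reads (76 members), fear conditioning minus context control, with its 95% interval from limma. Complex I is on the left, the other complexes and the associated genes on the right. Every interval includes 0, and the widest ones belong to GC-rich subunits such as Ndufa11, Ndufb7 and Atp5d.

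Complex I, the NADH dehydrogenase, takes electrons from NADH to ubiquinone. Of its 35 tested members, 13 had a log2 change above 0 and 22 below, over a range of -0.34 to 0.14. The 7 core subunits, which carry the redox centres and the quinone site, divided 3 to 4, and the 28 accessory subunits 10 to 18. Ndufs1, the largest iron-sulphur subunit of the NADH-oxidising end, had 693, 630.1, 929 and 921 scaled reads in fear conditioning replicates 1 to 4, against 718, 665, 929.7 and 877 in context control replicates 1 to 4 (log2 change -0.015, SE 0.17, 95% interval -0.39 to 0.36). Ndufv1, the flavoprotein that binds NADH, had 518, 597, 365 and 169.8 scaled reads in fear conditioning, against 423, 441, 229 and 367 in context control (log2 change 0.073, SE 0.34, 95% interval -0.67 to 0.82). Ndufs1 was high in replicates 3 and 4 of both groups and Ndufv1 in replicates 1 and 2 of both groups, so the groups overlapped for each.

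The accessory subunits with the smallest unadjusted p from limma in complex I were Ndufb10, Ndufa12 and Ndufb5, each with an adjusted p of 0.9998. Ndufb10, part of the membrane arm, had 257, 256, 261 and 193 scaled reads in fear conditioning, against 258, 309, 240.0 and 295 in context control (log2 change -0.19, SE 0.17, 95% interval -0.55 to 0.17). The other 3 conditioned samples lay close together, and fear conditioning replicate 4 was the lowest of the 8. Ndufa12, at the matrix arm, had 55.2, 65, 73.8 and 58.5 scaled reads in fear conditioning, against 73.9, 65.8, 62.5 and 103 in context control (log2 change -0.25, SE 0.23, 95% interval -0.76 to 0.26). Context control replicate 4 was the highest of the 8 for this gene. Ndufb5, in the membrane arm, had 327, 317, 411 and 407 scaled reads in fear conditioning, against 342, 337, 451 and 481 in context control (log2 change -0.13, SE 0.17, 95% interval -0.50 to 0.24), with both groups high in replicates 3 and 4. Ndufb9, the complex I subunit with the most scaled reads per kb of transcript (629.9), had 409, 458, 463 and 383 scaled reads in fear conditioning, against 383, 461, 453 and 539 in context control (log2 change -0.094, SE 0.15, 95% interval -0.42 to 0.23), and its 8 values lay within 1.41-fold of each other.

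Complex II, succinate dehydrogenase, is the enzyme shared with the citric acid cycle and the one respiratory complex made wholly from nuclear genes. Its 4 members varied little between samples. Sdha, the flavoprotein that oxidises succinate, had 1647, 1681, 1905 and 1547 scaled reads in fear conditioning replicates 1 to 4, against 1466, 1639.8, 1632 and 1872 in context control replicates 1 to 4 (log2 change 0.038, SE 0.13, 95% interval -0.24 to 0.32). It had the most scaled reads per kb of the complex, 577. Sdhb, the iron-sulphur subunit, had 358, 375, 354 and 243 scaled reads in fear conditioning, against 296, 339.8, 298 and 333 in context control (log2 change 0.052, SE 0.17, 95% interval -0.31 to 0.42). Fear conditioning replicate 4 was the lowest of the 8 samples for Sdhb, and the other 3 conditioned samples lay above all 4 controls. The membrane anchors Sdhc and Sdhd also overlapped between the groups. Sdhc had 396, 407, 336 and 269.6 scaled reads in fear conditioning, against 348, 380.1, 335 and 362 in context control (log2 change -0.033, SE 0.16, 95% interval -0.38 to 0.32). Sdhd had 276, 359, 292 and 291 scaled reads in fear conditioning, against 299.8, 321, 293 and 328 in context control (log2 change -0.034, SE 0.15, 95% interval -0.35 to 0.28). For these 4 genes the highest sample exceeded the lowest by 1.3-fold in Sdha and Sdhd, 1.51-fold in Sdhc and 1.55-fold in Sdhb.

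Complex III, the cytochrome bc1 complex, passes electrons from ubiquinol to cytochrome c. Of its 9 members, 5 had a log2 change above 0 and 4 below. Uqcrfs1, the Rieske iron-sulphur protein, had 352, 431, 521 and 404 scaled reads in fear conditioning replicates 1 to 4, against 408, 375, 452 and 491 in context control replicates 1 to 4 (log2 change -0.021, SE 0.16, 95% interval -0.37 to 0.33). Cyc1, the cytochrome c1 that hands electrons on, had 461, 548, 385 and 196 scaled reads in fear conditioning, against 422, 431, 278 and 357 in context control (log2 change 0.019, SE 0.28, 95% interval -0.58 to 0.62). Both genes had overlapping groups, and Cyc1 in fear conditioning replicate 4 was the lowest of its 8 values. Uqcrq, a small membrane subunit with the smallest unadjusted p from limma in the complex, had 146, 135, 84.7 and 69.1 scaled reads in fear conditioning, against 89.7, 98, 82.7 and 95 in context control (log2 change 0.19, SE 0.25, 95% interval -0.37 to 0.74). Its first and second conditioned replicates lay above all controls, and fear conditioning replicate 4 lay under all of them. Uqcrh, the hinge protein that helps cytochrome c dock, had 294, 294, 347 and 262 scaled reads in fear conditioning, against 268, 304, 314 and 422 in context control (log2 change -0.11, SE 0.17, 95% interval -0.49 to 0.26) and the most scaled reads per kb of the complex (572). Uqcrc2, a core scaffold protein, had 881, 989.5, 1265 and 1039 scaled reads in fear conditioning, against 801, 915, 1034 and 1186 in context control (log2 change 0.088, SE 0.16, 95% interval -0.26 to 0.44), with overlapping groups.

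Complex IV, cytochrome c oxidase, reduces oxygen, and many of its nuclear subunits exist as paired isoforms for different tissues or oxygen levels. Of its 17 tested members, 7 had a log2 change above 0 and 10 below. Cox4i1, the widely expressed form of subunit 4, had 711, 793, 596 and 315 scaled reads in fear conditioning replicates 1 to 4, against 526, 743, 452 and 657 in context control replicates 1 to 4 (log2 change -0.033, SE 0.26, 95% interval -0.60 to 0.54). Cox4i2, the form known from lung and from responses to low oxygen, had 0, 13.3, 2.73 and 0 scaled reads in fear conditioning, against 5.81, 4.03, 8.07 and 8.05 in context control. It had the lowest log2 change and the smallest p of all 84 members (-1.43, SE 0.79, 95% interval -3.15 to 0.28). Those values came from 35 reads over all 8 samples, and 2 conditioned samples were listed at 0 while another held the highest value. The log2 change was -3.02 with a pseudocount of 0.1, -0.32 with one of 10, -0.74 in edgeR and -0.73 in DESeq2. It was -0.80 with columns scaled to equal totals, and -2.23 to -0.95 with 1 sample left out, its lowest without fear conditioning replicate 2 and its highest without fear conditioning replicate 1 or 4.

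Ndufa4, long counted in complex I and now placed in complex IV, had the most scaled reads per kb of complex IV (937), with 436, 455, 462 and 365 scaled reads in fear conditioning, against 351, 445, 397 and 476 in context control (log2 change 0.044, SE 0.15, 95% interval -0.28 to 0.37). Its paralogue Ndufa4l2, known as induced by low oxygen, had 2.76, 3.98, 0 and 2.88 scaled reads in fear conditioning, against 5.81, 5.37, 2.02 and 1.61 in context control (log2 change -0.56, SE 0.65, 95% interval -1.96 to 0.84). The first gene varied by 1.36-fold over the 8 samples and the second stayed under 6 scaled reads in each of them. Cox6a1, the common form of subunit 6a, had 322, 367, 309 and 203 scaled reads in fear conditioning, against 275, 341, 286 and 339.6 in context control (log2 change -0.074, SE 0.19, 95% interval -0.49 to 0.34). Cox6a2, the form of heart and muscle that parvalbumin interneurons also use, had 9.67, 10.6, 1.37 and 0.959 scaled reads in fear conditioning, against 11.6, 10.7, 6.05 and 3.22 in context control (log2 change -0.73, SE 0.68, 95% interval -2.21 to 0.74). For Cox6a2 both groups were higher in replicates 1 and 2 than in 3 and 4.

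The other pairs followed the same order, with a common form far above a tissue-restricted one. Cox6b1 had 334, 397, 303 and 229 scaled reads in fear conditioning, against 277, 356, 273 and 372 in context control (log2 change -0.03, SE 0.19, 95% interval -0.45 to 0.39), and its testis-type partner Cox6b2 had 0, 3.98, 0 and 0 scaled reads in fear conditioning, against 2.49, 0, 3.03 and 0 in context control. Cox7a2 had 351, 369, 399 and 265 scaled reads in fear conditioning, against 329.7, 351, 336 and 425 in context control (log2 change -0.067, SE 0.17, 95% interval -0.43 to 0.29), and its heart and muscle partner Cox7a1 had 5.52, 6.63, 0 and 0.959 scaled reads in fear conditioning, against 4.15, 4.03, 1.01 and 0 in context control. Cox7b had 271, 339.6, 338 and 275 scaled reads in fear conditioning, against 269.9, 316, 270.2 and 344 in context control (log2 change 0.027, SE 0.16, 95% interval -0.32 to 0.37), and its testis-type partner Cox7b2 had 0, 2.65, 0 and 5.76 scaled reads in fear conditioning, against 2.49, 0, 7.06 and 1.61 in context control. Each of the 3 partners was listed at 0 in at least 1 sample of each group, and each pair's groups overlapped. Their log2 changes were -0.37 for Cox6b2, 0.23 for Cox7a1 and -0.39 for Cox7b2, with intervals reaching past 1 on both sides.

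Isoform use was compared as the share of 1 gene in the summed scaled reads of its pair or trio. Cox4i2 made up 0.525 ± 0.777% in fear conditioning and 1.15 ± 0.498% in context control of the Cox4i sum (SD, n = 4 each). Cox6a2 made up 1.66 ± 1.39% in fear conditioning and 2.53 ± 1.34% in context control of the Cox6a sum. Ndufa4l2 made up 0.57 ± 0.392% in fear conditioning and 0.916 ± 0.602% in context control of its pair. Of the 9 shares tested, 0 passed the threshold (exact two-sided permutation tests over 70 assignments, smallest raw p = 0.229 for Cox4i2, adjusted p = 0.771 for each share). The smallest p that 4 against 4 samples allow is 0.0286. The differences were smaller than the SD of either group for Cox6a2 and Ndufa4l2. For Cox4i2 the difference was smaller than the SD of the fear conditioning group and larger than that of the context control group. The restricted forms rested on 9 to 47 reads in all.

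Complex V, the ATP synthase, couples proton flow through a rotating c-ring to ATP synthesis in the catalytic head. Of its 15 members, 8 had a log2 change above 0 and 7 below. Atp5a1, the alpha subunit of the head, had 2270.3, 2356, 2287 and 1567 scaled reads in fear conditioning replicates 1 to 4, against 1649, 2111, 1738 and 2369 in context control replicates 1 to 4 (log2 change 0.10, SE 0.17, 95% interval -0.27 to 0.47). Atp5b, the catalytic beta subunit, had 2261, 2097, 2233 and 1584 scaled reads in fear conditioning, against 1611, 2165, 1796 and 2435 in context control (log2 change 0.034, SE 0.17, 95% interval -0.33 to 0.40). Both were lowest in fear conditioning replicate 4, highest in context control replicate 4 and overlapped between the groups. Atp5b had 1056 scaled reads per kb, the most of any member.

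Atp5g1, Atp5g2 and Atp5g3 encode the same mature c-ring protein behind different import sequences. Atp5g3 had 509.6, 548, 629 and 494 scaled reads in fear conditioning, against 428, 524, 524 and 709.7 in context control (log2 change 0.014, SE 0.17, 95% interval -0.35 to 0.38). Atp5g2 had 87, 96.8, 71.1 and 52.8 scaled reads in fear conditioning, against 78.1, 95.4, 68.6 and 86.9 in context control (log2 change -0.12, SE 0.24, 95% interval -0.64 to 0.40). Atp5g1 had 44.2, 33.2, 26 and 10.6 scaled reads in fear conditioning, against 34.9, 32.2, 16.1 and 9.66 in context control (log2 change 0.29, SE 0.50, 95% interval -0.80 to 1.37), the highest log2 change of any member. Atp5g3 held most of the trio's scaled reads in every sample, at 79.1% to 88.6%. Near-identical copies elsewhere in the genome, described below, numbered 1 for Atp5g1, 2 for Atp5g2 and 0 for Atp5g3. Scaled reads are also not corrected for length, so these shares are uncertain as levels. The share of Atp5g1 was 6.9%, 4.89%, 3.58% and 1.89% in fear conditioning, against 6.45%, 4.95%, 2.65% and 1.2% in context control. It was larger in replicates 1 and 2 than in 3 and 4 in both groups, and averaged 4.32 ± 2.11% in fear conditioning and 3.81 ± 2.34% in context control (exact permutation p = 0.771).

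The 4 associated genes are named like subunits for their history. Cox7a2l takes part in joining complexes III and IV into supercomplexes, Atp5s and Atp5sl are older symbols of Dmac2l and Dmac2, and Cox4nb is an older symbol of Emc8, a member of a protein insertion complex of the endoplasmic reticulum. Cox7a2l had 104, 159, 91.6 and 110.3 scaled reads in fear conditioning, against 139, 119.5, 133 and 151 in context control (log2 change -0.25, SE 0.21, 95% interval -0.70 to 0.20). Cox4nb had 224, 247, 186 and 272 scaled reads in fear conditioning, against 256, 257, 268 and 274 in context control (log2 change -0.20, SE 0.16, 95% interval -0.54 to 0.15). The log2 change was -0.17 for Atp5sl and 0.064 for Atp5s, and the groups overlapped for all 4 genes.

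The chain as a whole took a share of all gene-assigned values that overlapped between the groups. The 86 members together made up a percentage of the summed scaled reads of all genes that was 0.803, 0.857, 0.792 and 0.623 in fear conditioning replicates 1 to 4, against 0.747, 0.811, 0.729 and 0.858 in context control replicates 1 to 4. The means were 0.769 ± 0.101 percent in fear conditioning and 0.786 ± 0.0594 percent in context control (SD, n = 4 each). Fear conditioning replicate 4 was the lowest of the 8 samples in the total and in each of complexes I to V. Among the 76 members with a mean of at least 20 scaled reads, this sample held the lowest value for 45 and context control replicate 1 for 15. Fear conditioning replicate 2 held the highest value for 31 members and context control replicate 4 for 30. The most extreme samples therefore belonged to both groups.

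**Figure D2:**
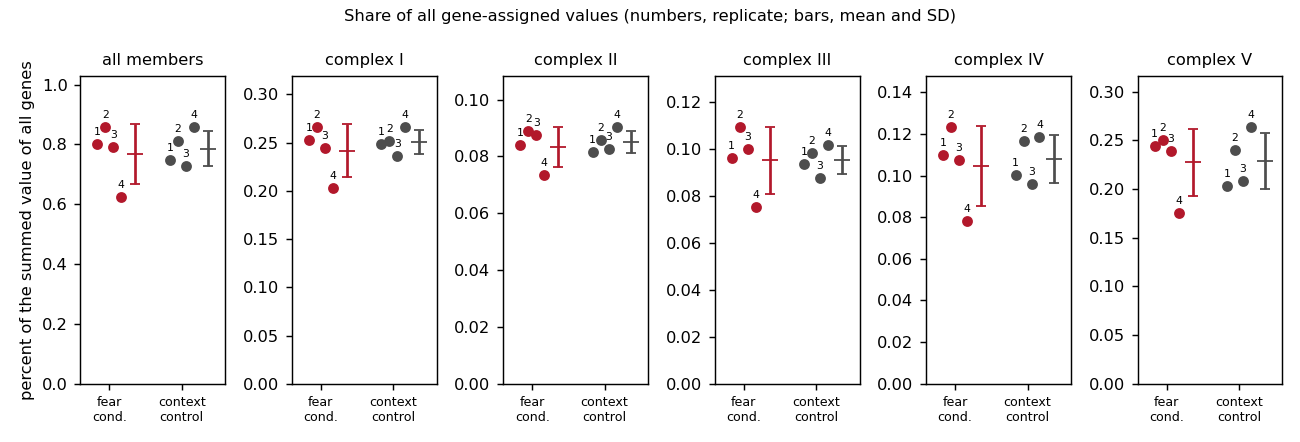
Percent of the summed scaled reads of all genes taken by all members and by each of complexes I to V, per sample, with replicate numbers and, beside the points, the mean and SD of each group (n = 4). Fear conditioning replicate 4 is the lowest point of every panel, and the group means lie within 1 SD of each other.

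The spread of the members between samples is described here by their base composition, whose part in it was not tested. Among the 76 members, the 26 richest in GC (54.6% to 61.1%) spanned a median of 2.47-fold from the lowest to the highest sample. The 24 of middle GC content (50.3% to 54.4%) spanned 1.61-fold, and the 26 poorest (39.0% to 50.1%) 1.47-fold. The median log2 deviation of GC-rich minus GC-poor members, divided at the median GC of the 84, was 0.31, 0.46, -0.18 and -0.50 in fear conditioning replicates 1 to 4, against 0.26, 0.26, -0.16 and -0.20 in context control replicates 1 to 4. Its sign was positive in replicates 1 and 2 and negative in replicates 3 and 4 of both groups. A lowess correction for GC content, fitted on all genes in each sample, left a span of -0.052 to 0.175 for that difference. It narrowed the median residual SD of the 26 richest in GC to 0.304, against 0.47 uncorrected, and that of the 26 poorest to 0.195, against 0.199. With it the 95% interval lay within 1.5-fold for 62 of 84 members. The correction left 0 members past the threshold.

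**Figure D3:**
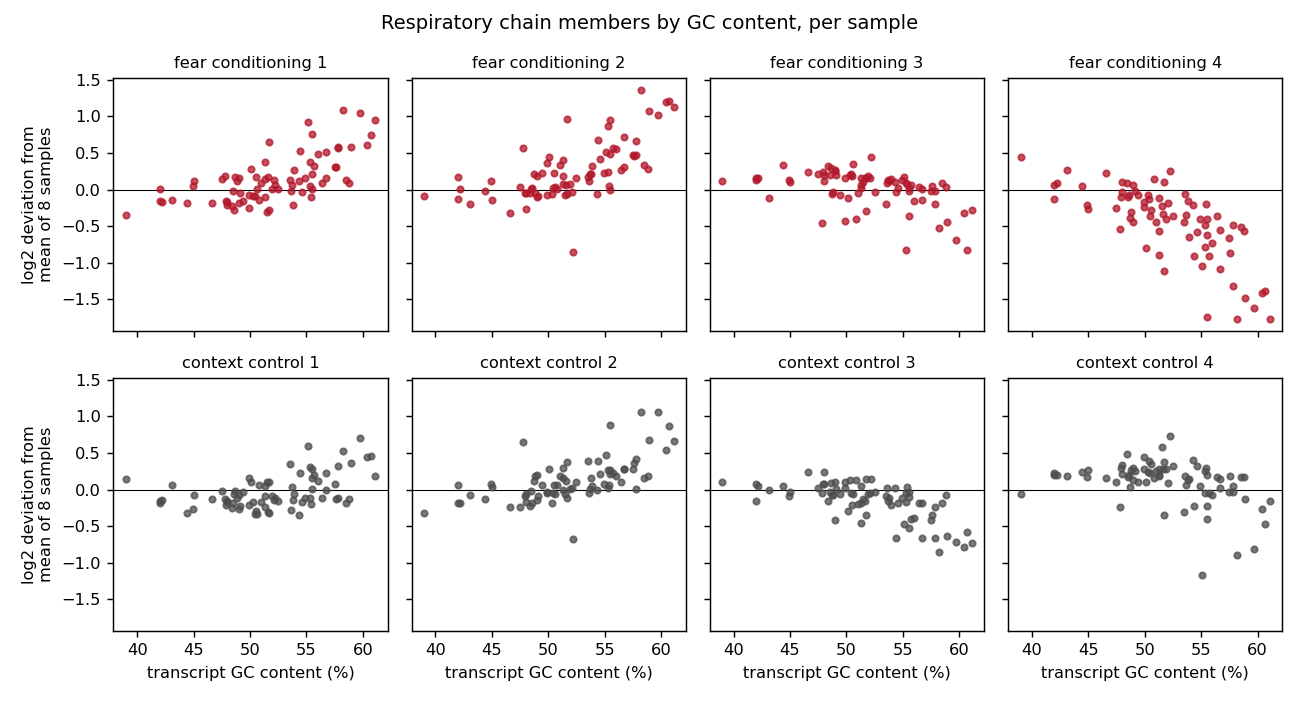
Log2 deviation of each of the 76 members from its own mean over the 8 samples, against the GC content of its transcript in percent, with the conditioned samples in the upper row and the controls in the lower row. The points slope upward with GC content in replicates 1 and 2 and downward in replicates 3 and 4 of both groups, and the GC-rich members lie lowest in fear conditioning replicate 4.

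Partners within a complex, which are needed together in the enzyme, can differ in base composition. The stretches below are the first 90 bases of the longest coding exon of each gene, with G and C in capitals, for 3 such pairs in which the GC-rich gene comes first. They were read by symbol from GENCODE vM21 transcripts (build GRCm38, the annotation's build).
Ndufv1: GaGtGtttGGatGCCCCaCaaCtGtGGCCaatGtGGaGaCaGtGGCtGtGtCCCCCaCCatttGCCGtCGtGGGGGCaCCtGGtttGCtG
Ndufs1: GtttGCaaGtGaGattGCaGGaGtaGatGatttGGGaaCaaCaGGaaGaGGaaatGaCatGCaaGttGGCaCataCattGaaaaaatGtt
Uqcrc1: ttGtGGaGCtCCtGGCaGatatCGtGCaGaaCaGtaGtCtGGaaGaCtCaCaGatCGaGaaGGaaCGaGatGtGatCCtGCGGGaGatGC
Uqcrc2: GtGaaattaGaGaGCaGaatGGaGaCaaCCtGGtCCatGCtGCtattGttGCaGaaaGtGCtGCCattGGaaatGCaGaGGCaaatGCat
Atp5d: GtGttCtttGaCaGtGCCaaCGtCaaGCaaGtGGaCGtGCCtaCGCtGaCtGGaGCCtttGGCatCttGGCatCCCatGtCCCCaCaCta
Atp5c1: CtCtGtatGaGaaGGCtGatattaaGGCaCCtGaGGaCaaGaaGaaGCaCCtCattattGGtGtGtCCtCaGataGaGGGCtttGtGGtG
The Ndufv1 stretch lies at chr19:4008717-4008806 on the minus strand and the Ndufs1 stretch at chr1:63163763-63163852 on the minus strand. The Uqcrc1 stretch lies at chr9:108944690-108944779 on the plus strand and the Uqcrc2 stretch at chr7:120651185-120651274 on the plus strand. The Atp5d stretch lies at chr10:80143832-80143921 on the plus strand and the Atp5c1 stretch at chr2:10064222-10064311 on the minus strand. The capitals number 54 in Ndufv1 and 35 in Ndufs1, 47 in Uqcrc1 and 41 in Uqcrc2, and 49 in Atp5d and 42 in Atp5c1. At the last base of codons over the whole coding sequence, G or C made up 59.7% in Ndufv1 and 39.2% in Ndufs1, 65.4% in Uqcrc1 and 41.9% in Uqcrc2, and 68.5% in Atp5d and 55.7% in Atp5c1.

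The pairs were chosen after their values had been seen, so the ratios are given without a test. The GC correction is built to narrow differences between GC-rich and GC-poor genes, so the smaller spans after it are no test either. The ratio of Ndufv1 to Ndufs1 in scaled reads was 0.747, 0.947, 0.393 and 0.184 in fear conditioning replicates 1 to 4, against 0.588, 0.663, 0.246 and 0.418 in context control replicates 1 to 4. It spanned 5.14-fold over the 8 samples, and 1.97-fold after GC correction. The ratio of the core proteins of complex III, Uqcrc1 to Uqcrc2, was 0.663, 0.664, 0.369 and 0.288 in fear conditioning replicates 1 to 4, against 0.622, 0.627, 0.342 and 0.391 in context control replicates 1 to 4, a span of 2.3-fold that came to 1.36-fold after correction. Both ratios were higher in replicates 1 and 2 than in 3 and 4 of either group. In the rotor stalk of the ATP synthase, Atp5d (the delta subunit) to Atp5c1 (the gamma subunit) was 0.563, 0.589, 0.182 and 0.081 in fear conditioning replicates 1 to 4, against 0.341, 0.442, 0.148 and 0.191 in context control replicates 1 to 4. That ratio spanned 7.27-fold, and 2.05-fold after correction. Cox4i1 to Cox5a, neighbours in complex IV, spanned 2.83-fold and 1.21-fold after correction.

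**Figure D4:**
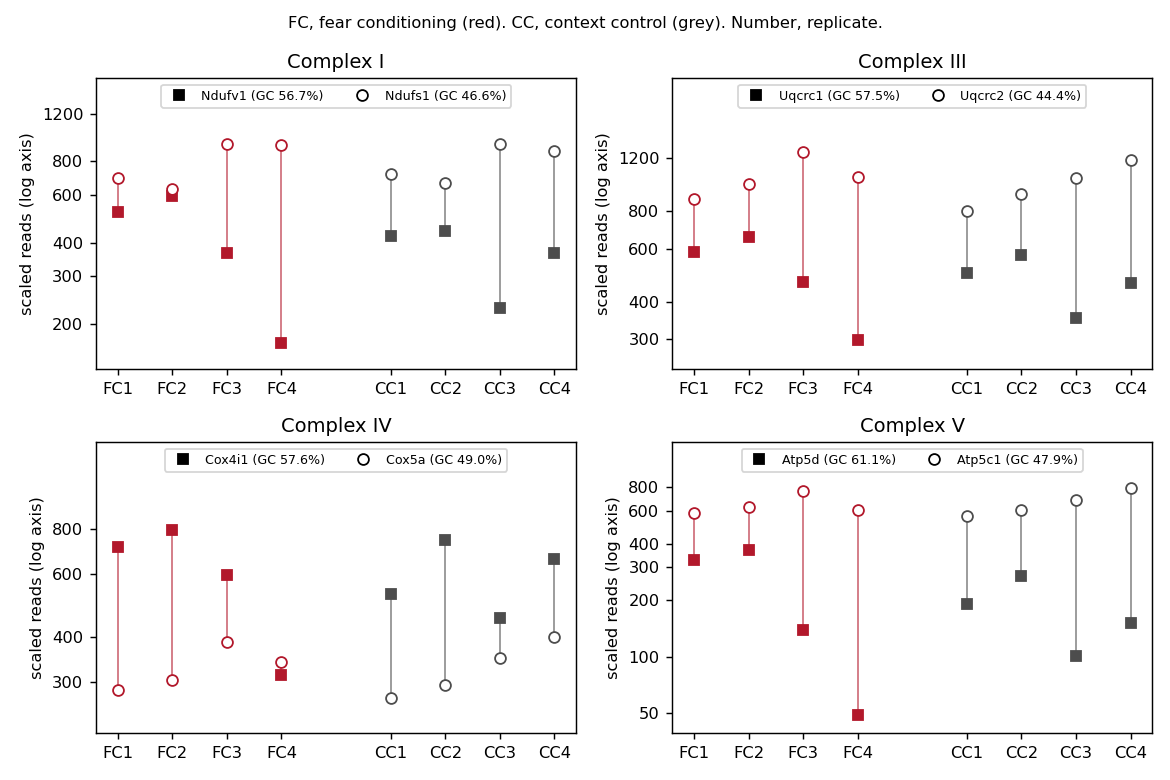
Scaled reads (log axis) of 4 pairs of subunits in each sample, with the GC-rich gene as a filled square, the GC-poor gene as an open circle and a line joining the pair of a sample. The conditioned samples are at the left and the controls at the right of each panel. The distance between partners varies among replicates of the same group, and Cox4i1 lies under Cox5a in fear conditioning replicate 4 alone.

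Of the 76 members, 18 (23.7%) had all 4 values of replicates 1 and 2 above all 4 values of replicates 3 and 4, across both groups, against 17.0% of the 10858 genes with the same minimum. Their GC content ran from 51.7% to 61.1%. They included Ndufv1, Ndufs7, Ndufs8, Ndufb7 and Ndufa13 of complex I, Cyc1, Uqcrc1, Uqcr10 and Uqcr11 of complex III, and Atp5d and Atp5g1 of complex V. The reverse order was found for 10 members (13.2%, against 15.0% of genes), with GC content from 42.0% to 52.2%, among them Ndufs1, Ndufv2, Uqcrb, Uqcrc2, Cox5a and Atp5f1.

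The comparison was therefore also made within the replicate numbers, a choice made after these values had been seen. Between the conditioned and control samples of replicates 1 and 2, 69 of the 84 members had a log2 change above 0, with a median of 0.13, against 52.8% and 0.021 of all tested genes. Between those of replicates 3 and 4, 7 of 84 lay above 0, with a median of -0.202, against 48.0% and -0.017 of all tested genes. The members share their libraries, so their counts do not stand for 84 separate measurements. A fit of the difference between these changes called 0 of 84 members and 0 of all tested genes (0.0%). At an unadjusted p under 0.05 it named 3 members, against 742 genes (5.05%), and its smallest adjusted p among members was 0.887 (limma). The difference was below 0 for 78 of 84 members, with a median of -0.32, against 52.6% of all tested genes and a median of -0.029.

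The comparison over all 8 samples depended on single libraries. Without fear conditioning replicate 4, 57 members had a log2 change above 0 and the median was 0.078. Of the 14704 tested genes, 7590 lay above 0 without that sample, with a median of 0.012. Without fear conditioning replicate 2, 22 members lay above 0 (median -0.105), against 7161 tested genes (median -0.009). The members' median was 0.001 without context control replicate 2 and 0.017 without context control replicate 4. It thus lay above 0 without either of these or without fear conditioning replicate 4. After GC correction the median deviation of the members was 0.006, 0.12, 0.072 and -0.24 in fear conditioning replicates 1 to 4, against -0.057, 0.02, -0.018 and 0.17 in context control replicates 1 to 4. On that scale fear conditioning replicate 4 was the lowest and context control replicate 4 the highest. Within replicates 1 and 2 and within replicates 3 and 4, the median log2 change was 0.73 and -0.53 for 8 immediate early genes, and 0.14 and -0.34 for 74 cytosolic ribosomal protein genes. It was 0.20 and 0.04 for 9 neuronal markers, and 0.01 and 0.13 for 24 regulators of mitochondrial biogenesis. Other mitochondrial lists had 0.067 and -0.071 (citric acid cycle), 0.063 and -0.084 (assembly factors), and 0.084 and -0.073 (import). Antioxidant genes had 0.081 and -0.15, and subunits and partners outside the symbol rule 0.017 and -0.192. The sign stayed the same for carriers and coupling proteins (0.078 and 0.01) and mitochondrial ribosomal protein genes (-0.006 and -0.085). The part of GC content in these values was not tested.

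**Figure D5:**
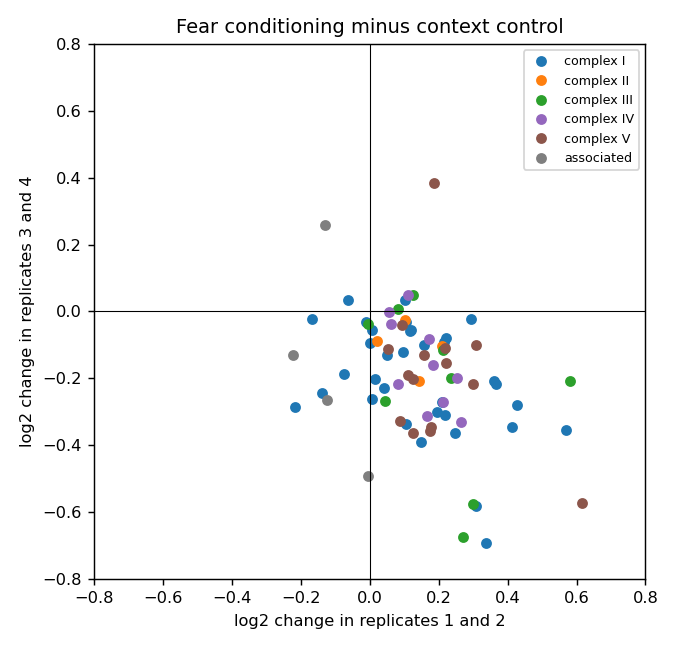
Log2 change of each of the 76 members, fear conditioning minus context control, within replicates 1 and 2 (horizontal axis) and within replicates 3 and 4 (vertical axis), coloured by complex. Most points lie right of 0 and under 0, and no member passed the threshold in either comparison or for the difference between them.

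Several subunits have near-identical copies elsewhere in the genome that could take reads. A gene of at least 95% identity over at least 80% of the coding sequence was found for 21 of the 86 members, and most of these copies are annotated as pseudogenes. Atp5l had 8 such genes, and Atp5h and Uqcrb had 3 each. Members with a copy had a median of 163 scaled reads per kb (4.36 to 351), against 284 (0 to 1056) for the 65 with none. The part of copies in these levels was not tested. Low values of Cox7c, Ndufb4, Ndufs5 and Atp5l, subunits of working enzymes, at 35.3, 21.8, 4.36 and 43.9 scaled reads per kb, are therefore uncertain as levels. How the authors' counting treated reads that fit several genes is not given in the sources used here.

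Genes that build or serve the chain gave 0 calls as well. Of 36 tested assembly factors, which put subunits and cofactors together, 19 had a log2 change above 0 and 17 below (median 0.005). Nubpl, which inserts iron-sulphur clusters into complex I, had 13.8, 15.9, 17.8 and 24.9 scaled reads in fear conditioning, against 7.47, 13.4, 14.1 and 12.9 in context control (log2 change 0.56, unadjusted p = 0.154). Uqcc, an assembly factor of complex III, had 243, 248, 302 and 293 scaled reads in fear conditioning, against 267, 232, 225 and 214 in context control (log2 change 0.21, unadjusted p = 0.204). The groups overlapped for both. Among 5 tested subunits and partners outside the symbol rule, 1 lay above 0 and 4 below (median -0.089). Cycs, the cytochrome c that carries electrons between complexes III and IV, had 377, 362, 451 and 435 scaled reads in fear conditioning, against 350.5, 310.2, 449 and 352 in context control (log2 change 0.16, unadjusted p = 0.332). Ndufab1, the acyl carrier subunit of complex I, had 2.76, 5.31, 6.83 and 9.59 scaled reads in fear conditioning, against 4.98, 6.72, 10.1 and 16.1 in context control (log2 change -0.54, unadjusted p = 0.301), and its groups overlapped too.

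Of 24 tested regulators of mitochondrial biogenesis, 11 had a log2 change above 0 and 13 below (median -0.014). Sp1, a general activator of GC-box promoters, had 98, 121, 127 and 136 scaled reads in fear conditioning, against 142, 129, 213 and 142 in context control (log2 change -0.35, unadjusted p = 0.11). Ppargc1b, a coactivator of respiratory genes, had 22.1, 11.9, 8.2 and 12.5 scaled reads in fear conditioning, against 9.14, 9.4, 10.1 and 4.83 in context control (log2 change 0.61, unadjusted p = 0.178). Neither passed the threshold. The median was 0.011 for 22 citric acid cycle genes, 0.067 for 21 carriers and coupling proteins, -0.008 for 23 import components and -0.006 for 18 antioxidant genes, each with 0 genes past the threshold. The smallest p of these lists was that of Slc25a12, the aspartate-glutamate carrier of neurons, with 749.9, 655, 720.1 and 534 scaled reads in fear conditioning, against 553, 582, 503 and 519.8 in context control (log2 change 0.29, unadjusted p = 0.0666). Its groups overlapped. The median was -0.086 for 74 cytosolic and -0.097 for 75 mitochondrial ribosomal protein genes, also with 0 calls.

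Marker lists of other cell types were set beside the chain, since its level differs between cell types. All 10 astrocyte markers had a log2 change below 0 (median -0.32), as had all 10 oligodendrocyte (median -0.53), 9 microglial (-0.28), 10 endothelial and mural (-0.42) and 8 tested meningeal and choroid markers (-0.63), with 0 past the threshold. At an unadjusted p under 0.05 there were 2 astrocyte, 2 endothelial and mural and 1 meningeal and choroid marker, and 0 of the oligodendrocyte and microglial ones. Of 9 neuronal markers, 8 lay above 0 (median 0.11), and of 7 interneuron markers 4 did (median 0.013). Summed scaled reads were 16276 to 18328 in fear conditioning and 16063 to 22377 in context control for astrocytes, and 2905 to 4705 in fear conditioning and 2701 to 10798 in context control for oligodendrocytes. For microglia they were 1251 to 1535 in fear conditioning and 1488 to 1707 in context control, and for endothelial and mural cells 927 to 1578 in fear conditioning and 1281 to 1755 in context control. Meningeal and choroid markers summed to 105 to 350.2 in fear conditioning and 215 to 577 in context control. In each of these lists context control replicate 3 held the highest sum of the 8 samples. Context control replicate 4 held the lowest for oligodendrocytes. How far the lower medians rest on context control replicate 3 was not tested. The 8 immediate early genes, an index of recent neuronal activity, divided 4 to 4 (median 0.073). Blood was represented by 1 tested gene with a log2 change of -0.98, and 2 haemoglobin genes were listed at 0. The part of cell composition in the members' values was not tested.

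Promoters of the members were read for motifs. RefSeq windows from 250 bases before to 50 after the gene start (GRCm38.p6) were matched by symbol for 67 of 86 members. The motif of NRF1, a factor known for respiratory genes, was searched on both strands as the palindrome of 10 letters in capitals below and found in 5 windows (7.46%), against 1.91% of windows of tested genes and 0.977% of all windows. Windows of 40 bases are shown for 4 of these genes, with the motif in capitals.
Atp5g2: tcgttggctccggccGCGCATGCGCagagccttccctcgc
Atp5k: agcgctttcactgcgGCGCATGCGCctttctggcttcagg
Cox6a1: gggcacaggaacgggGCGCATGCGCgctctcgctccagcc
Ndufa11: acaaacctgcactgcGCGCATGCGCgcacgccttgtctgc
They lie at chr15:102671065-102671104 on the minus strand for Atp5g2, chr5:108434425-108434464 on the minus strand for Atp5k, chr5:115349096-115349135 on the minus strand for Cox6a1 and chr17:56717687-56717726 on the plus strand for Ndufa11, and begin before the gene start. The fifth gene with the motif was Uqcrc1. Of these genes, Ndufa11 spanned 9.31-fold over the 8 samples and Atp5k 1.97-fold, with overlapping groups in both.

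Other motifs were counted in the same windows, first those known from respiratory promoters. The ETS motif CCGGAAG, bound by GABP, was found in 15 windows (22.4%, against 16.4% of windows of tested genes). The YY1 motif AAGATGGC was found in 9 (13.4%, against 4.3%) and the ERR motif AAGGTCA in 8 (11.9%, against 3.16%). The letters TATAAA, those of a TATA box, were found on either strand in 7 (10.4%, against 7.34%). They were counted anywhere in the window, for example at -52 in Ndufa7 and -235 in Ndufb7 relative to the gene start. The matches are therefore not placed TATA boxes. Among all 27025 windows the shares were 9.12%, 2.88%, 4.66% and 14.2% in the same order. The ETS and YY1 letters can overlap by AAG. A match only describes the letters of the window.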

How the data were processed

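Total RNA of 8 samples was sequenced, 4 per group, grouped by title. The table was named FPKM, but the deposited values are a signal without length correction. Every value above 0 (100% in each column) was a whole multiple of the column's step to within 0.01 read, and division by the step gave back the reads. In context control replicate 3 the step lies so near 1 that a format check could not tell it from rounding, and the edgeR and DESeq2 values rest on taking it as a step. The submitters' processing notes name TopHat and HTSeq with no version and hg19, which is a human build. What factor the authors chose for each sample, and which annotation, strandedness and filters, is not given in the sources used here. Overlapping genes cannot be separated for that reason. All columns were used, and 25 date-like symbols could not be named.

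Values were tested as log2(value + 1) for the 14704 genes with a mean of at least 1 in limma 3.58.1 (lmFit, eBayes with trend, R 4.3.3), with two-sided p-values adjusted by Benjamini-Hochberg and called under 0.05, a plan made for FPKM values and kept for scaled counts. This scale can understate the change of low genes, and with values at 0 in some samples it can overstate it. edgeR 4.0.16 (quasi-likelihood, TMM) and DESeq2 1.42.0 were alternatives on recovered reads. GC content and length came from 1 GENCODE vM21 principal transcript per gene (98.8% of tested genes matched), and the correction used a lowess of span 0.3 on genes with a mean log2 value of at least 5. Near-identical copies were sought with BLAST 2.17.0. Same-numbered samples of the groups deviated together (correlations of 0.512, 0.521, 0.249 and 0.227 over 9794 genes), so the replicate number was used as a block in an alternative, with the pairing taken from the data alone. Samples with different numbers did so too (0.631 and 0.498 between numbers 1 and 2, 0.737 and 0.34 between 3 and 4), so the numbers do not single out pairs. The limma fit was also run on simulated counts, drawn separately for each gene and sample. They lacked the GC differences between libraries seen here, so that run does not measure how the fit behaves in these data. Depth is 1992452 to 3565356 reads per sample, and intervals cover the spread of 4 samples per group.

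Members and gene lists were chosen with earlier results of these data known. Members given with values per sample were the 3 with the smallest p in each of complexes I, III, IV and V, all of complex II, the isoform pairs, the highest per kb in each complex and core catalytic subunits, and from other lists the 2 genes with the smallest p, of which those closest to the chain are printed. The complex pairs compared as ratios and the associated genes were added after their values were seen.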

Additional observations from a re-analysis of the deposited data

Results flagged for a closer look

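Among 84 groups of 4 values checked, 5 had a single sample far from the others. Its gap to the nearest of them took up more than 0.829 of the group's range. The groups include isoform shares and are not the 84 tested members. For independent, normally distributed values, chance gives such a gap in about 1 group in 20. A gene with reads in only 1 sample of a group always has such a gap, as Cox6b2 below, and its share repeats the same event. Ndufb10, a membrane-arm subunit of complex I, had 192.8 scaled reads in fear conditioning replicate 4, against 256 to 261 in the other 3 conditioned samples. Atp5a1, the alpha subunit of the ATP synthase, had 1567 scaled reads in that sample, against 2270.3 to 2356 in the other 3. Sdhb, the iron-sulphur subunit of complex II, had 243 scaled reads in that sample, against 354 to 375 in the other 3. Cox6b2, the testis-type form of subunit 6b, had 3.98 scaled reads in fear conditioning replicate 2 and was listed at 0 in the other 3 conditioned samples. Its share of the Cox6b pair in that sample was therefore 0.993%, on 3 reads.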

How the results depend on the processing

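The members gave 0 calls under each alternative run, with 77 tested at a mean of at least 10 and 84 in every other run. The runs were pseudocounts of 0.1 and 10, no filter, a mean of at least 10, scaling to equal totals and quantile normalization. Further runs were GC and length corrections, the replicate block alone and with either correction, edgeR and DESeq2. The last were a term for replicates 1 and 2 against 3 and 4, and each sample left out. The block changed no call. Each replicate number holds a sample of each group, so the block alone cannot move a log2 change. The members' median of -0.03 under it was therefore fixed in advance. Over all tested genes the count was 0 with and without the block, 2 within replicates 1 and 2, and 0 to 1 with 1 sample left out, the 1 without fear conditioning replicate 4. The members' median lay between -0.084 and 0.024 under the alternatives that kept all samples and between -0.105 and 0.078 with 1 sample left out. Directions are not calls here, and where they turned the cause was not tested. The log2 change crossed 0 with quantile normalization to -0.01 for Atp5a1, -0.059 for Sdha, -0.009 for Cox7b, -0.032 for Atp5g3, -0.088 for Atp5b and -0.009 for Cyc1. The log2 change crossed 0 with scaling to equal totals to -0.017 for Sdha, -0.003 for Sdhb, -0.028 for Cox7b, -0.011 for Ndufa4, -0.041 for Atp5g3, -0.021 for Atp5b and -0.035 for Cyc1. The log2 change crossed 0 with length correction and replicate block with length correction to 0.005 for Sdhd, 0.024 for Cox4i1, 0.031 for Cox6b1 and 0.01 for Uqcrfs1. The log2 change crossed 0 with edgeR on recovered reads to 0.013 for Cox4i1 and -0.01 for Atp5g3. The log2 change crossed 0 with DESeq2 on recovered reads to 0.013 for Cox4i1 and -0.013 for Atp5g3. The log2 change crossed 0 with GC correction and replicate block with GC correction to -0.006 for Atp5g3 and -0.012 for Cyc1. With 1 sample left out, the lowest and highest log2 changes of members that crossed 0 were -0.20 to 0.017 for Uqcrh, -0.009 to 0.18 for Uqcrc2, -0.054 to 0.68 for Atp5g1, -0.24 to 0.046 for Atp5g2, -0.02 to 0.10 for Sdha, -0.013 to 0.20 for Sdhb, -0.11 to 0.089 for Sdhc and -0.12 to 0.011 for Sdhd. They were -0.19 to 0.25 for Cox4i1, -0.18 to 0.10 for Cox6a1, -0.15 to 0.11 for Cox6b1, -0.25 to 0.78 for Cox7a1, -0.14 to 0.055 for Cox7a2, -0.026 to 0.10 for Cox7b, -0.93 to 0.094 for Cox7b2 and -0.035 to 0.12 for Ndufa4. For the rest they were -0.10 to 0.15 for Atp5g3, -0.064 to 0.15 for Atp5b, -0.10 to 0.089 for Ndufs1, -0.15 to 0.45 for Ndufv1, -0.12 to 0.066 for Uqcrfs1 and -0.17 to 0.33 for Cyc1. Differences in isoform share, in percentage points, ran from -0.0328 to 0.556 for Cox7a1, -0.723 to 0.246 for Cox7b2, -0.368 to 1.38 for Atp5g1 and -1.08 to 2.03 for Atp5g3 with 1 sample left out, and no share passed the threshold. The filter of a mean of at least 10 removed the low isoforms, so they have no value there. Low isoforms rest on few reads. The intervals give the uncertainty of each estimate with 4 samples per group and are not limits of detection, which were not computed.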
